A study of Mus musculus with 10 samples.

Results

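Colony cells of day 8 were compared with cells of the same day that were not picked from colonies, in a chemical reprogramming of mouse embryonic fibroblasts (MEFs) towards extraembryonic endoderm (XEN)-like cells. The members were chosen by name alone, as cells whose name begins with d8c or d8, where the study uses d8c for cells it took from day 8 colonies. After a minimum of 4000 detected genes per cell, 20 of 24 d8c cells and 62 of 72 d8 cells remained, so that the comparison held 82 of 670 kept cells, out of 808 cells in 12 groups. The study isolated MEFs from ICR mouse embryos and names the cocktail C6FAE for this time course, and so for both groups. C6FAE joins CHIR99021 (an inhibitor of the kinase GSK3), an inhibitor of the TGF-beta receptor ALK5 and Forskolin (which raises cAMP). It also holds AM580 (a retinoic acid receptor agonist) and EPZ004777 (an inhibitor of the histone methyltransferase Dot1l). The methods of the study give a medium with bFGF and with valproic acid added to this cocktail. They also list Oct4-EGFP mice and do not tie them to the sequenced cells. Single cells were picked by hand after digestion and their unique molecular identifiers (UMIs) counted per gene. The 10 sequenced samples could not be assigned to cells, so all cells form 1 sample, no test between d8c and d8 was possible, and every difference below has no replicate check.

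XEN cells correspond to the primitive endoderm lineage of the early embryo, which lines the yolk sac, and they depend on transcription factors such as *Sox17*, *Gata4*, *Sall4* and *Foxa2*. MEFs are mesenchymal cells that secrete collagens and proteoglycans and express *Prrx1*, *Twist2* and *Osr1*. Colonies form where cells divide in place. Dividing cells copy their DNA in S phase with the MCM helicase and its partners, and then build the mitotic spindle and separate chromosomes with a further set of genes that are read mostly in G2 and mitosis.

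Levels are given as CPM, the UMIs of a gene per 1000000 gene UMIs of its cell, and a difference is the mean of log2(CPM + 1) over d8c cells minus that over d8 cells. The median UMI count was 411486 in d8c cells (62612 to 1116234) and 676178 in d8 cells (17633 to 3259198), with a median of 6771.5 and 7759.5 detected genes. The median share of ERCC spike-in UMIs was 10.2% in d8c and 6.12% in d8 cells. The d8 cells, whose running numbers go up to 72 and those of d8c cells to 24, were also divided at number 48 for this work into 42 cells numbered 1 to 48 (median 691657 UMIs) and 20 cells above 48 (359096 UMIs). No label marks that division. Depth thus moves with the comparison, and values against each range and after thinning every cell to 50000 UMIs are given where they matter.

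A gene was compared when its mean log2(CPM + 1) reached 1 in d8c or in d8 cells. Of the 9278 such genes, 47 were higher by over 2 in d8c cells (0.507% of the genes) and 71 were lower by over 2 (0.765%). At a difference of over 1 the numbers were 426 higher (4.59%) and 1481 lower (16.0%), and the median difference of all genes was -0.30. Of the 47 higher genes 10 were in the G2/M or S phase lists and 34 in none of the 29 lists used here, and of the 71 lower genes 65 were in none. After thinning, 94 genes were higher and 211 lower by over 2, of 8222 genes in 20 d8c and 59 d8 cells. Against the d8 cells numbered above 48, whose depth was nearer to that of d8c cells, 137 were higher and 83 lower, and against those numbered 1 to 48 the counts were 35 and 152. Genes higher in d8c cells thus made up 39.8% of the calls over all d8 cells, 62.3% and 18.7% against the separate ranges, 4.17% when scaled to ERCC UMIs (16 higher, 368 lower, median of all genes -0.73) and 75.0% with a pseudocount of 10 (6 higher, 2 lower, median -0.12).

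**Figure D1:**
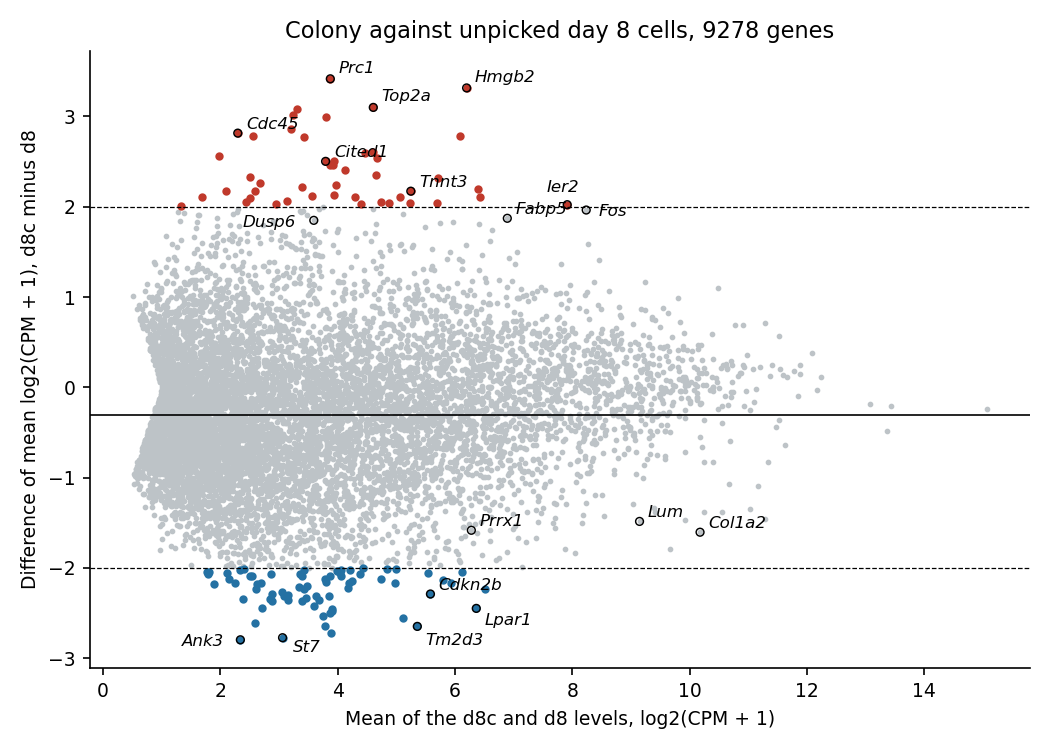
Difference of mean log2(CPM + 1), d8c minus d8, against the mean of the group levels for 9278 genes, with each point a gene, dashed lines at 2 and -2 and a solid line at the median of -0.30. The 47 red genes are led by Prc1 at 3.42 and Hmgb2 at 3.32, and the 71 blue genes by Ank3 at -2.80.

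*Prc1*, which bundles microtubules between the separating chromosomes, had the largest difference, 3.42. It lay at 0 to 1016 CPM in d8c cells with a median of 179 CPM, and at 0 to 334 CPM in d8 cells with a median of 2.03 CPM. At least 20 CPM was reached by 12 of 20 d8c cells and by 10 of 62 d8 cells, so that the ranges overlapped and the medians were far apart. *Hmgb2*, a chromatin protein of dividing cells, had 3.76 to 2321 CPM in d8c (median 580.0) and 0 to 1530 CPM in d8 cells (median 15.0), a difference of 3.32. *Top2a*, the topoisomerase that untangles replicated DNA, had a median of 260.3 CPM in d8c and 4.66 CPM in d8 cells, with highest cells at 892 and 517 CPM and a difference of 3.10. These genes lie on mouse chromosomes 7 (*Prc1*, 87439336 to 87461145, plus strand), 8 (*Hmgb2*, 59990640 to 59994796, plus strand) and 11 (*Top2a*, 98854257 to 98885503, minus strand) in the GENCODE annotation of mm9, the build to which the authors aligned.

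Other genes among the 12 furthest up include known parts of the division machinery. *Knl1*, which acts at kinetochores, differed by 2.79. *Sgo1*, which protects the cohesion of sister chromatids, differed by 3.02, and *Asf1b*, a chaperone of replicating histones, by 2.99. *Birc5* and *Cdca8*, both of the chromosomal passenger complex, differed by 2.79 and 2.61, and *Cdc45*, part of the replicative helicase, by 2.82. *Ckap2l* on the mitotic spindle differed by 2.86 and *Shcbp1* by 2.78. The 12 were chosen to lie above their level in both ranges of d8 cells, so their direction there is no result.

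In the list of 21 G2/M genes all passed the minimum level, 8 were higher by over 2 (0.507% of all genes were), 19 by over 1 (4.59%) and none was lower than in d8 cells. Their median difference was 1.79 against -0.30 for all genes, 1.61 and 2.12 against the separate d8 ranges, and 2.41 after thinning. Beside *Hmgb2*, *Top2a* and *Birc5*, the genes past 2 were *Ccnb2* (2.54), a B-type cyclin, *Aurka* (2.47), a spindle kinase, *Cdk1* (2.32), the mitotic kinase, *Mki67* (2.27), which coats mitotic chromosomes, and *Ube2c* (2.04), a ubiquitin enzyme of mitotic exit. *Cdk1* had a median of 337 CPM in d8c and 14.8 CPM in d8 cells. Of 18 S phase genes above the minimum level, *Cdc45* and *Uhrf1* (2.17), which maintains DNA methylation at replication, were higher by over 2. By over 1, 8 were higher (4.59% of all genes were) and 1 was lower (16.0%), and the median was 0.75.

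The promoters of G2/M genes are shown because these genes moved together. Many such promoters carry a cell cycle homology element, searched here as TTTGAA, and CCAAT boxes, each on both strands (so also as TTCAAA and ATTGG). In the 250 bases before the start, TTTGAA was found for 8 of the 18 G2/M genes with a RefSeq entry (44.4%) and for 16.3% of 27025 promoters, and CCAAT for 16 of the 18 (88.9%) and for 34.5% of all. Both were found for 8 of the 18 (44.4%) and for 5.73% of all promoters. Of the genes higher by over 2 in d8c cells, 36 had an entry, of which 14 held TTTGAA (38.9%), 20 CCAAT (55.6%) and 12 both (33.3%). Of those lower by over 2, 53 had an entry, of which 2 held TTTGAA (3.77%), 16 CCAAT (30.2%) and 0 both. The higher genes include 8 of the G2/M list and so are not a separate set. A match is only a run of letters and was not tested for binding.

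The RefSeq sequences (build GRCm38.p6, 5′ to 3′ on the strand of the gene, both motifs in capitals) are those of *Hmgb2* (chr8:57511593-57511842, plus strand), *Top2a* (chr11:99024190-99024439, minus strand), *Cdk1* (chr10:69352913-69353162, minus strand) and *Mki67* (chr7:135716380-135716629, minus strand).
Hmgb2: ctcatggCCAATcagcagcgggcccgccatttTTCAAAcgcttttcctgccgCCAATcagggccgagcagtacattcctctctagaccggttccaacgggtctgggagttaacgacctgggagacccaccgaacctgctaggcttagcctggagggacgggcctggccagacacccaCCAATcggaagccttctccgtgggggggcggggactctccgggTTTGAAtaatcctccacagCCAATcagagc
Top2a: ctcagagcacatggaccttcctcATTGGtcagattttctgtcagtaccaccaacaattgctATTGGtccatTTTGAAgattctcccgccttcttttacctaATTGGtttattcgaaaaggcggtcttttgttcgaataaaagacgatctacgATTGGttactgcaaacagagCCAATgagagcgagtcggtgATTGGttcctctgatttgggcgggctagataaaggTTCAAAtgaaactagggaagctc
Cdk1: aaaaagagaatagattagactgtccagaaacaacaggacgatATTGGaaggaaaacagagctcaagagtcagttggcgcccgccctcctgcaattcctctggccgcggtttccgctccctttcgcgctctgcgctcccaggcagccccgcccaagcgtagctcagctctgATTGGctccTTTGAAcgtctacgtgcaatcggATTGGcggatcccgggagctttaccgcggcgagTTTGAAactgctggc
Mki67: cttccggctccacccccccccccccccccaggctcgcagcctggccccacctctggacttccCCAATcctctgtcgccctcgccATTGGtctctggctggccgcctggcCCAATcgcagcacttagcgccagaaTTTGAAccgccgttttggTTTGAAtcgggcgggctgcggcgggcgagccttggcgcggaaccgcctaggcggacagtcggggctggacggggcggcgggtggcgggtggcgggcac
The *Hmgb2* window holds 2 matches to TTTGAA and 4 to CCAAT, that of *Top2a* 2 and 6, and those of *Cdk1* and *Mki67* 2 and 3 each.

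Of 12 cell cycle inhibitors and p53 targets above the minimum level 5 were lower by over 1 in d8c cells (16.0% of all genes were) and none higher by over 1, with 10 below and 2 above 0 and a median of -0.72. *Cdkn2b*, an inhibitor of the kinases that start S phase, had a median of 12.8 CPM in d8c (2.66 to 346) and of 176 CPM in d8 cells (0 to 797), a difference of -2.29 that became -3.65 after thinning. *Cdkn1c*, another inhibitor of cyclin-dependent kinases, differed by -1.26, and the p53 targets *Ccng1* and *Trp53inp1* by -1.71 and -1.53.

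**Figure D2:**
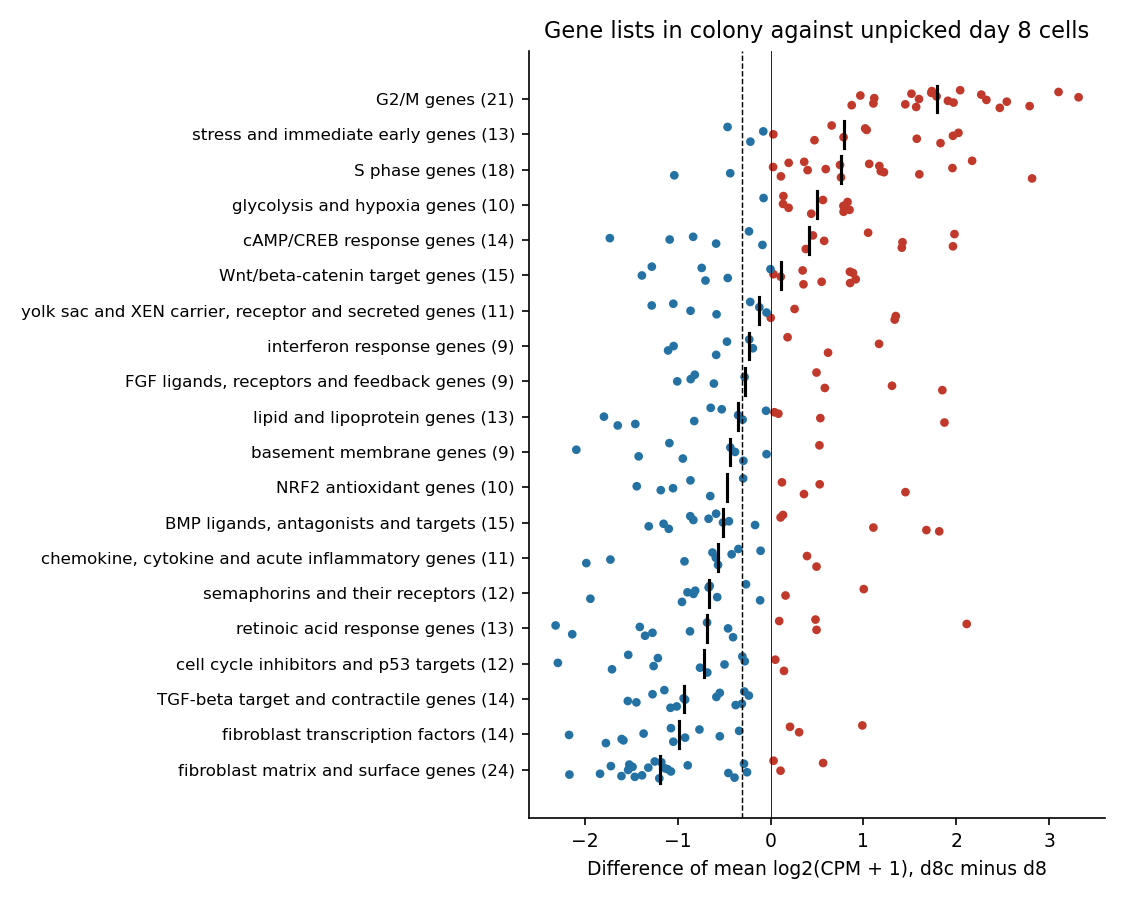
Difference of mean log2(CPM + 1), d8c minus d8, for the members of the 20 gene lists with at least 8 members above the minimum level (their number in brackets); each point is a gene, the black bar the median of the list and the dashed line the median of all genes, -0.30. The G2/M genes lie furthest to the right with a median of 1.79 and the fibroblast matrix genes furthest to the left with -1.19.

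The summed CPM of the 21 G2/M genes was high in more of the d8c cells. In d8c cells the sum ran from 85.1 to 10758 CPM with a gap between 570.1 and 2635 CPM, and in d8 cells from 71.8 to 12973 CPM with a gap between 1746 and 4107 CPM, below which 6 cells lay above 1000 CPM. At least 2000 CPM, a limit set after the values were seen, was reached by 12 of 20 d8c cells (60.0%, exact 95% binomial interval 36.1% to 80.9%) and by 7 of 62 d8 cells (11.3%, 4.66% to 21.9%). Such intervals cover counting error only, not the spread between cultures. With a limit 0.5 times as high the shares were 60.0% and 20.97%, after thinning they were 60.0% and 11.9%, and among d8 cells 5 of 42 numbered 1 to 48 and 2 of 20 above 48. The same limit was reached by 44 of 72 cells at d0, 11 of 86 at d6p, 11 of 67 at d12 and 25 of 38 at d20.

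MEF genes were lower in d8c than in d8 cells on average, though their summed level was not below that at d0. For 24 fibroblast matrix and surface genes the medians of the sum were 8877 CPM in d8c, 18989 CPM in d8 and 7910 CPM in d0 cells. For 20 fibroblast transcription factors they were 1502, 2178 and 869 CPM. All 24 fibroblast matrix and surface genes passed the minimum level, with a median difference of -1.19 against -0.30 for all genes. Of these 24, 16 were lower by over 1 (16.0% of all genes were) and none higher by over 1. *Col1a2*, a chain of type I collagen, had a median of 549.8 CPM in d8c and 2036 CPM in d8 cells (difference -1.60), and *Lum*, a keratan sulfate proteoglycan, 205 and 1198 CPM (-1.48). *Col5a1*, a collagen that starts fibrils, was the only one lower by over 2, at -2.16. Among 14 fibroblast transcription factors above the minimum level 7 were lower by over 1 (16.0% of all genes were), and the median was -0.98. The 7 included *Prrx1* (-1.58), *Osr1* (-1.77), *Twist2* (-1.07) and *Snai1* (-2.17). For *Snai1* the difference was -3.12 against d8 cells numbered 1 to 48 and -0.17 against those above 48. *Vim*, the mesenchymal intermediate filament, differed by 0.03.

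That average hid a split among the d8c cells. The summed CPM of the 24 matrix genes ran from 1302 to 5216 CPM in 10 d8c cells and from 12538 to 30767 CPM in the other 10, with no cell between. Taking the middle of that gap on the log scale, 8087 CPM, as a limit, 10 of 20 d8c cells (50.0%, exact interval 27.2% to 72.8%) and 5 of 62 d8 cells (8.06%, 2.67% to 17.8%) lay below it. The limit was set on these cells after their values were seen. Below it also lay 38 of 72 cells at d0, 79 of 83 at d2, 12 of 86 at d6p and 16 of 67 at d12. From 5000 to 12000 CPM there were 2 d8c and 9 d8 cells, so that among d8 cells the limit cut a continuous range. A limit 1.5 times as high left the d8c share at 50.0% and brought the d8 share to 19.4%, and one 0.5 times as high gave 35.0% of d8c and 3.23% of d8 cells.

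**Figure D3:**
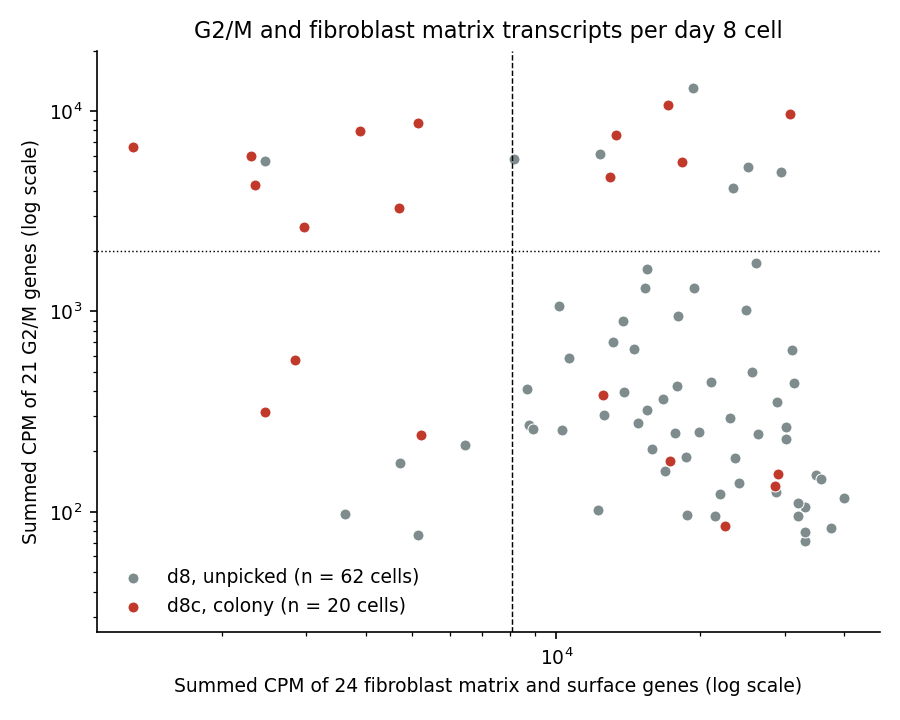
Summed CPM of 21 G2/M genes against summed CPM of 24 fibroblast matrix and surface genes, both on log axes, for each of 20 d8c and 62 d8 cells, with a dashed line at 8087 CPM and a dotted line at 2000 CPM. The upper left field, high in G2/M and low in matrix transcripts, holds 7 d8c cells and 1 d8 cell.

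High G2/M sums were found on both sides of the matrix limit. At least 2000 CPM was reached by 7 of the 10 low-matrix d8c cells, by 5 of the 10 other d8c cells and by 6 of the 57 d8 cells at or above the limit. Between d8c and d8 cells at or above the limit only, the median difference of the 21 G2/M genes was 1.60 and that of the 24 matrix genes -0.36, against a median of -0.42 over all genes. *Top2a* then differed by 2.56 and *Prc1* by 2.67, while the median of the S phase genes was -0.33. In that comparison 3 of 17 S phase genes were higher and 4 lower by over 1. The shares of all genes past 1 were not computed there, so these counts cannot be set against genes in general. *Cdc45* differed by 1.59, and the summed S phase level had a median of 607 CPM in d8c and 372 CPM in d8 cells.

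The low-matrix d8c cells had a median of 477355 UMIs (269452 to 1116234) and the other d8c cells one of 338637 (62612 to 807258). Depth thus moves with this split too, and its part in the differences between these cells was not tested. Of 9241 genes above the minimum level 701 were higher by over 2 in the low-matrix cells (7.59%) and 303 lower (3.28%), with a median difference of 0.34. The split was drawn on the matrix genes, of which 12 were lower by over 2, so these are no finding. Outside that list, *Pitx1*, a homeodomain factor of hindlimb and pituitary, lay at 82.6 to 855 CPM in the low-matrix cells and at 0 to 8.95 CPM in the others, with no overlap (difference 6.56). *Dusp6*, the phosphatase that ERK signalling induces and that limits it, lay at 38.8 to 1008 CPM against 0 to 17.2 CPM, again with no overlap (6.18). Neither gene was confined to colonies, since single d8 cells reached 1354 CPM of *Pitx1* and 85.2 CPM of *Dusp6*. *Tnnt3*, a troponin of fast skeletal muscle, had a mean of 979 and 31.0 CPM and *Fabp5*, a fatty acid binding protein, 1849 and 76.6 CPM, and here the ranges overlapped.

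Wnt target genes, which GSK3 inhibition turns on, were among the higher genes of the low-matrix cells. Of 15 Wnt target genes 7 were higher by over 2 (7.59% of all genes were). Among them were *Axin2* (3.86), a feedback inhibitor of the pathway, *Rnf43* (3.55), which removes Wnt receptors, and the transcription factors *Tcf7* (3.47) and *Sp5* (3.37). *Etv5* (4.35) and *Etv4* (2.59), ETS factors induced by FGF signalling, and *Bmp2* (3.72), a BMP ligand, were also higher. In the S phase list 12 of 20 genes were higher by over 2 and in the list of glycolysis and hypoxia genes 6 of 12, against 2 of 21 in the G2/M list. Lower by over 2 outside the matrix list were *Rorb* (-4.10), a nuclear receptor, *Itga8* (-3.91), an integrin, and *Cyr61* (-3.46), a matrix-bound target of YAP and SRF.

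Averaged over all d8c cells, the differences were smaller. Of 15 Wnt targets above the minimum level none differed upward by over 1 and *Znrf3* (-1.28) and *Nkd2* (-1.38), both feedback inhibitors, were lower. *Dusp6* (1.85) and *Etv5* (1.31) were higher, *Fgfr1* was lower by just over 1, and the median of 9 FGF genes was -0.28. *Bmp2* (1.82), *Bmp4* (1.68) and *Bmp7* (1.11) were the higher BMP ligands of 15 genes, and the BMP antagonist *Chrd* (-1.31) was at or below 3.68 CPM in every d8c cell, though its difference was -1.96 against d8 cells numbered 1 to 48 and 0.06 against those above 48. In the retinoic acid list *Crabp2* (-2.13), *Rarres1* (-2.31), *Rarb* (-1.41) and *Cyp26b1* (-1.27), a binding protein, a retinoid-induced gene, a receptor and the enzyme that clears retinoic acid, were lower, and the median of 13 genes was -0.68. All 14 TGF-beta target and contractile genes were below their d8 level, 6 of them by over 1 (16.0% of all genes were). Their median was -0.93, against -0.30 for all genes. Among cells at or above the matrix limit it was -0.45, against -0.42 for all genes, so these genes were hardly lower than genes in general there. Their summed level had a median of 5213 CPM in d8c and 3901 CPM in d8 cells at or above the limit. Below the limit the medians were 1483 and 1207 CPM.

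*Cited1*, a transcriptional co-regulator grouped here with the XEN factors, was the gene of that list past 2, with a difference of 2.50 (2.36 and 2.80 against the separate d8 ranges, 3.20 after thinning). It lay at 0 to 1011 CPM in d8c cells (median 67.7) and at 0 to 113 CPM in d8 cells (median 4.38), and 11 of 20 and 11 of 62 cells reached 20 CPM. Its mean was 186 CPM in d8c, 12.1 CPM in d8, 1517 CPM in d12c and 2027 CPM in d20 cells. Within d8c it had a mean of 337 CPM in the low-matrix cells and 33.8 CPM in the others.

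The summed level of the 18 XEN transcription factors, *Cited1* included, had a median of 173 CPM in d8c and 32.1 CPM in d8 cells, and of 482 CPM in the low-matrix and 89.7 CPM in the other d8c cells. The median of this sum was 126.5 CPM at d0, 63.2 CPM at d6p and 4065 CPM at d20. Within d8c 3 of 8 XEN factors and 5 of 12 yolk sac genes above the minimum level were higher by over 2 in the low-matrix cells (7.59% of all genes were). Their medians were 1.31 and 1.07, against 0.34 for all genes. Of the master genes, *Sox17* had UMIs in 8 of 20 d8c cells and reached 20 CPM in 2 of them, at 130 and 306 CPM, both low-matrix cells. It reached 20 CPM in 6 of 62 d8 cells, of which the highest, at 561 CPM, also lay below the matrix limit. The mean was 45.2 CPM in low-matrix d8c cells and 118.5 CPM in low-matrix d8 cells, where 1 cell held 793 of 828 UMIs. The *Sox17* difference of -0.12 was -0.51 against the d8 cells numbered 1 to 48 and 0.69 against those above 48, so that the sign depended on the d8 cells used. *Gata4* had no UMI in 20 d8c cells, which allows a share of up to 15.0% of cells with a UMI but sets no limit on cells that express the gene, and was at 20 CPM or more in 3 of 62 d8 cells. *Foxa2* had none in either group, and *Sall4* had mean levels of 10.5 CPM in d8c and 3.94 CPM in d8 cells, with 2 and 5 cells at 20 CPM. Of the 27 yolk sac and XEN carrier genes 10 had no UMI in d8c cells, among them *Ttr*, *Apob* and *Amn*, and of the 35 epithelial genes 20, among them *Cdh1*, *Cldn3* and *Esrp1*.

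**Figure D4:**
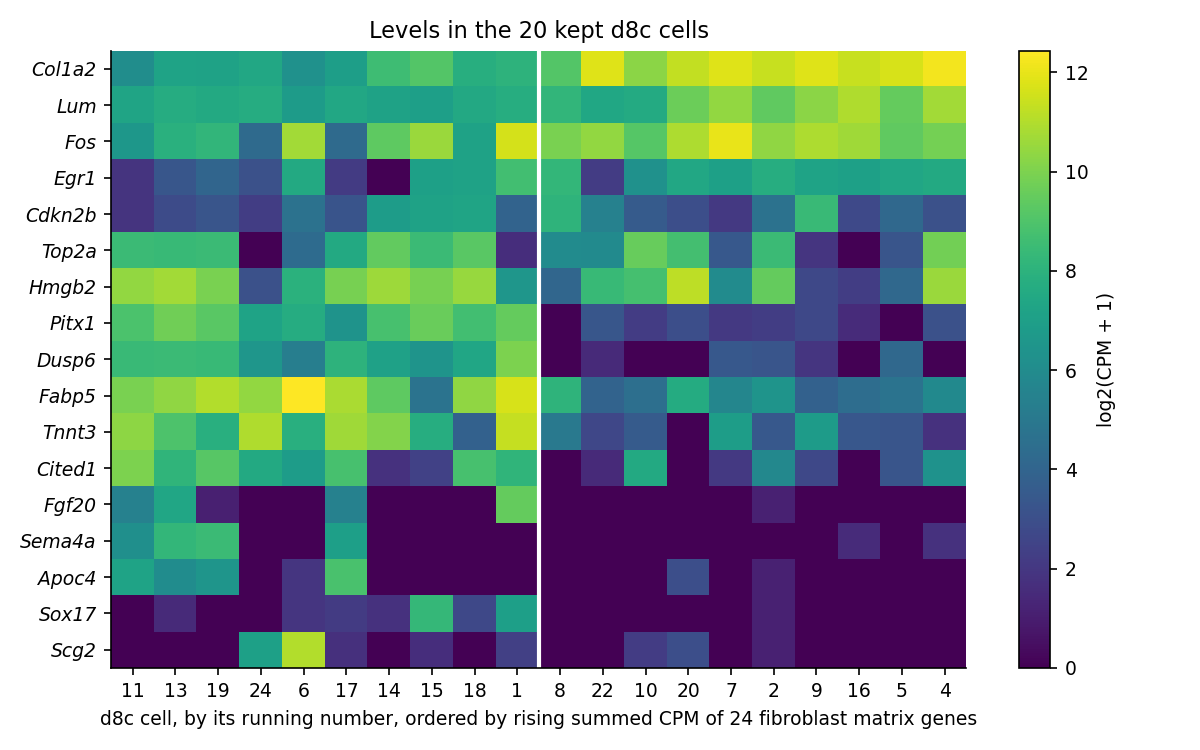
Level of 17 genes as log2(CPM + 1), by colour, in each of the 20 d8c cells, ordered from left to right by rising summed CPM of the 24 matrix genes, with a white line between the 10 low-matrix and the 10 other cells. Pitx1 and Dusp6 are high left of the line, Col1a2 right of it, and Fgf20, Sema4a and Apoc4 are high in a few cells on the left only.

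Of the 4 genes given as marks of the colony cells, 3 were high in a few of them and the fourth was not seen. *Fgf20*, a fibroblast growth factor that Wnt signalling can induce (chromosome 8, 41364520 to 41393685, minus strand, mm9), had a mean of 48.3 CPM in d8c and 1.01 CPM in d8 cells. It reached 20 CPM in 4 of 20 d8c and in 0 of 62 d8 cells, which allows up to 4.84% of cells at that level, and without its highest cell at 713 CPM the d8c mean was 13.3 CPM. *Sema4a*, a semaphorin of the membrane-bound class, had a mean of 43.2 and 1.74 CPM, with 4 and 1 cells at 20 CPM a highest cell of 357 CPM and a d8c mean of 26.7 CPM without that cell. *Apoc4*, an apolipoprotein, had a mean of 39.0 and 0.527 CPM, with 4 and 0 cells at 20 CPM a highest cell of 469 CPM and a d8c mean of 16.4 CPM without it. The 5 cells at 20 CPM or more of any of these 3 genes were all low-matrix cells, and 3 of them held all 3 genes. *Ovol1*, an epithelial zinc finger factor, had no UMI in 20 d8c cells, with the same limit of 15.0% of cells with a UMI, and had one in 1 of 62 d8 and in 8 of 51 d12c cells.

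A count of cells with any UMI gave another picture for these 3 genes. *Fgf20* had a UMI in 6 of 20 d8c (30.0%) and in 24 of 62 d8 cells (38.7%), yet the d8 cells held 1 or 2 UMIs each and 32 in all, against 583 UMIs in d8c cells (exact Poisson interval 537 to 632). In the other 10 groups the gene had 2 UMIs at d0 and none at d1 to d6p, d12, d12c and d20. *Apoc4* likewise had a UMI in 20 of 62 d8 cells, at most 5 per cell, and outside day 8 in 3 cells at d2 and 1 at d6p. The source of these few UMIs in d8 cells was not tested. After thinning, a UMI of *Fgf20* was left in 4 of 20 d8c and 4 of 59 d8 cells.

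**Figure D5:**
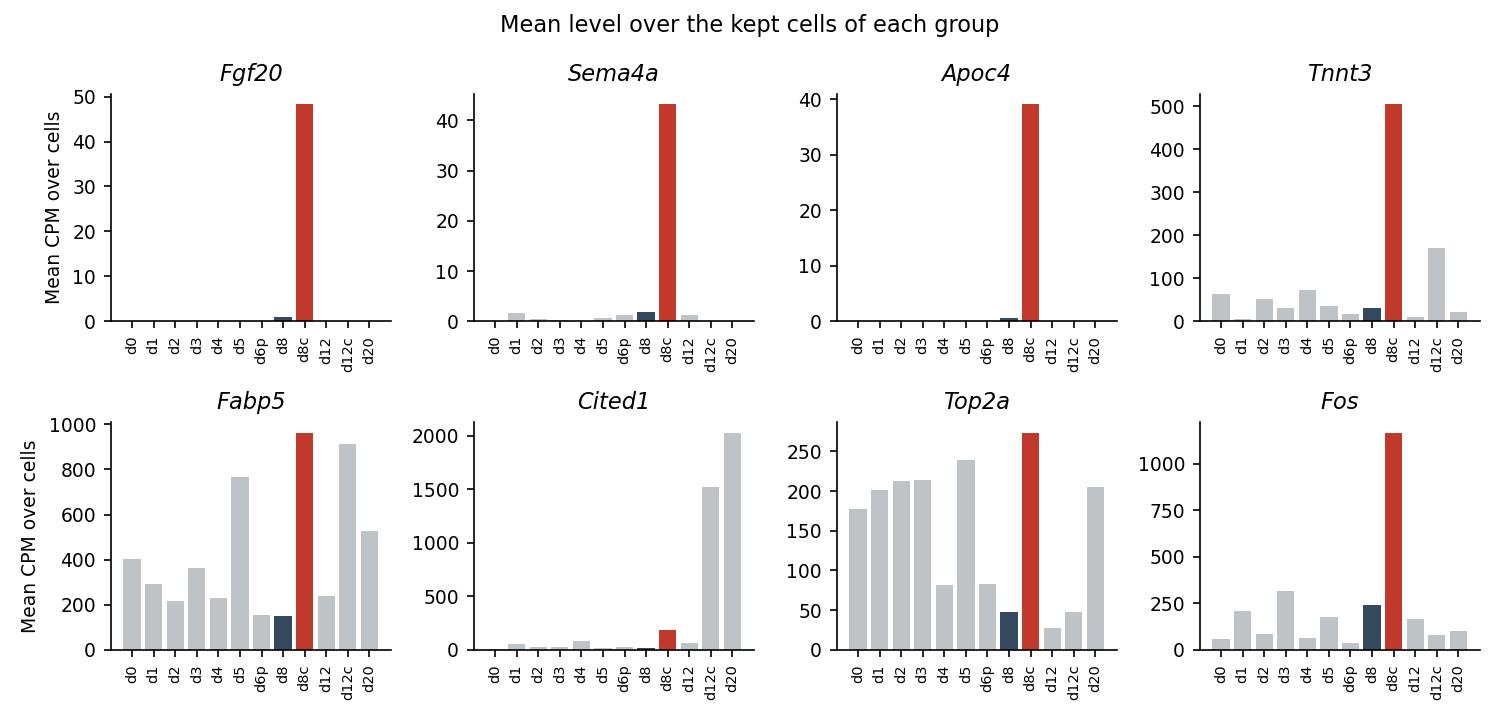
Mean CPM over the kept cells of each of the 12 groups, from d0 to d20, for 8 genes on linear axes, with d8 in dark blue and d8c in red. Fgf20, Sema4a and Apoc4 have means of 48.3, 43.2 and 39.0 CPM in d8c and at most 1.74 CPM elsewhere, whereas Cited1 is at 2027 CPM in d20.

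None of these 3 genes was carried on in later colony cells, where *Fgf20*, *Sema4a* and *Apoc4* had no UMI in 51 d12c and 38 d20 cells. *Tnnt3* had a mean of 505 CPM in d8c, 31.3 CPM in d8, 170 CPM in d12c and 20.6 CPM in d20 cells, and *Fabp5* 963, 148, 914 and 526 CPM. *Acsbg1*, an acyl-CoA synthetase, and *Mybpc1*, a muscle myosin binding protein, both named after their values were seen, reached 20 CPM in 5 and 6 of 20 d8c cells and in none of 62 d8 cells. Of these genes *Tnnt3* was past 2, with a difference of 2.17, while *Fgf20* (0.92), *Sema4a* (1.00) and *Apoc4* (1.34) stayed below, with no UMI in most d8c cells.

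Of 13 stress and immediate early genes above the minimum level 6 were higher by over 1 in d8c cells (4.59% of all genes were) and none lower by over 1, with 3 below 0 and a median of 0.79. *Fos*, a subunit of the AP-1 factor, lay at 18.6 to 4210 CPM in d8c (median 949.9) and at 25.5 to 932 CPM in d8 cells (median 154), a difference of 1.96, and 10 d8c cells, 7 of them among the 10 other cells, were above every d8 cell. *Egr1* (1.57), a zinc finger factor, and *Dusp1* (1.41), a phosphatase of stress kinases from the cAMP list, were likewise higher, with differences of 2.67 and 2.73 among cells at or above the matrix limit. *Ier2* differed by 2.02 and *Atf3*, a stress factor, by 1.83, with 6 of 20 d8c and 1 of 62 d8 cells at 20 CPM. The members did not split alike, since *Fos* (-2.29) and *Egr1* (-2.33) were lower in the low-matrix than in the other d8c cells, *Atf3* (1.70) was higher and *Ier2* (0.30) lay close. The cells had been digested to single cells before picking, and the part of that step in these genes was not tested.

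All of the 12 genes furthest down other than *Lpar1* had a median of at most 10.1 CPM in d8c cells. *Ank3*, an adaptor between membrane proteins and the cytoskeleton, reached 20 CPM in 1 of 20 d8c and 32 of 62 d8 cells, with medians of 0 and 21.1 CPM and a difference of -2.80. *St7* had 1 and 34 cells at 20 CPM (-2.77), and *Lpar1*, a receptor for lysophosphatidic acid, had UMIs giving 20 CPM or more in 11 of 20 d8c and in all 62 d8 cells (-2.45). *Dnajb9*, a chaperone of the endoplasmic reticulum (-2.62), *Aga*, a lysosomal enzyme (-2.55), and *Emb*, a membrane glycoprotein (-2.48), were lower in the same way. *Arxes2*, *Tm2d3*, *Ubac2*, *Mfsd1*, *Borcs8* and *Snrk* completed the 12, at -2.45 to -2.72. Of all 71 lower genes 65 were in none of the 29 lists. The mean log2 level in d8c cells was below that at d6p for 70 of the 71, and above it for all 47 higher genes. Choosing genes by their d8c difference favours both directions, and the share over all genes was not computed, so these counts are no separate result.

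The median difference of all genes was -0.44 against d8 cells numbered 1 to 48, -0.02 against those above 48 and -0.24 after thinning, where the number of lower genes was 211. Against the d8 cells above 48 *St7* had -2.85, *Tm2d3* -2.87, *Lpar1* -2.47, *Ank3* -1.92 and *Snrk* -1.57, with the same sign in both ranges fixed by the choice of the 12. After thinning the 12 lay between -2.16 and -3.03. The part of depth in these differences was not tested.

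Other lists differed in single members. *Lamc1*, a laminin chain, was the basement membrane gene past 2 (-2.09), with a median of -0.43 over 9 genes. *Gclm* (1.45) was higher and *Hmox1* (-1.44), *Gsta4* (-1.18) and *Gstm1* (-1.05) were lower among 10 NRF2 antioxidant genes. The lipid genes *Lpl* (-1.79), *Abca1* (-1.64) and *Apod* (-1.46) were lower and *Fabp5* (1.87) higher. Of 10 glycolysis and hypoxia genes none differed by over 1, with a median of 0.50. The medians of the Wnt, FGF, cAMP, glycolysis, yolk sac and interferon lists changed sign in 2 to 4 of the 13 alternatives each. The median was -0.66 over 12 semaphorins and receptors, -0.56 over 11 chemokine and cytokine genes, -0.23 over 9 interferon genes, -0.12 over 11 yolk sac genes and 0.42 over 14 cAMP response genes, in which *Rgs2* (1.98), a regulator of G protein signalling, was higher and *Pde4b* (-1.73), a cAMP phosphodiesterase, lower. *Scg2*, a secretory granule protein of that list, had a mean of 111 CPM in d8c cells that rested on 1 cell at 2067 CPM and was 8.11 CPM without it.

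Markers of blood and endothelial cells were at or near 0 in most cells of both groups. Of 11 blood and immune genes 9 had no UMI in d8c cells, including *Ptprc*, *Adgre1* and *Lyz2*, and the summed level had a median of 0.553 CPM in d8c (0 to 412) and 0 CPM in d8 cells (0 to 127). Of 9 endothelial genes 6 had none, *Pecam1* and *Tek* among them, with medians of 0 and 0.448 CPM. The neural list had medians of 5.76 and 4.86 CPM, the muscle list 3.23 and 2.66 CPM, the keratinocyte list 40.3 and 11.6 CPM and the trophoblast list 15.4 and 54.1 CPM. Each of these lists also had single high cells, up to 682 CPM in d8c (keratinocyte) and 3538 CPM in d8 cells (trophoblast). *Myod1*, *Myog* and *Myf5*, the factors of skeletal muscle, had no UMI in d8c cells, in which *Tnnt3* was high.

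Day 12 colony cells gave a comparison with other cells of the series. Those numbered above 48 (30 cells) had 541 genes higher (5.61%) and 1369 lower (14.2%) by over 2 than d12 cells, and 17 of the 47 genes higher in d8c cells (36.2% of these and 3.14% of the 541) and 29 of the 71 lower ones (40.8% and 2.12%) were among them. Those numbered 1 to 48 (21 cells) had 6 genes higher (0.0651%) and 28 lower (0.304%), none of them shared. The G2/M median was 1.57 in the first and 0.30 in the second comparison, and the matrix median -5.74 and -0.95. Every one of the 30 later-numbered d12c cells lay below the matrix limit of 8087 CPM, with sums of 133 to 4169 CPM, whereas the low-matrix d8c cells had 1302 to 5216 CPM.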

How the data were processed

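Single-cell RNA-seq was analysed from 1 table of counts, which the authors made by splitting reads by cell barcode, trimming them, aligning them to the mm9 mouse transcriptome and removing duplicates by UMI, as deposited and per the labels. The aligner, the counter and their versions are not given in the sources used here. Large counts appear rounded, and the table holds 23201 gene rows, 92 ERCC spike-in rows and 12 groups of cells named by day and number. Spike-in rows and 4 rows with date-like duplicated names were left out, which left 23197 genes. No map from cells to the 10 sequenced samples was used here, and the cell names carry no barcode that could be compared, so cells form 1 pooled sample, samples enter no group, and no p-value is given. A difference between cultures or libraries and one between d8c and d8 cells cannot be told apart.

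A cell entered the analysis when 4000 or more genes were detected in it, counts were scaled to CPM, and the mean of log2(CPM + 1) was compared (Python 3.11.15, pandas 2.3.3, numpy 2.4.6, scipy 1.17.1). A gene was called higher or lower past a difference of 2. Named genes were the 12 largest differences in each direction with the same sign against both ranges of d8 cells, the 4 given markers, 7 master genes, and in each list up to 4 members with the largest difference and up to 2 with the highest level. A few genes that this rule names are not reported here. The members, the lists and the rule were chosen with earlier results of these data known. The limits of 2000 and 8087 CPM, the split of d8c cells and the comparisons that rest on it were chosen after seeing the data. Alternatives were other minimums of detected genes, a pseudocount of 10, factors of edgeR 4.0.16 and DESeq2 1.42.0 (R 4.3.3), ERCC scaling, thinning to 50000 UMIs, which left out 3 d8 cells and no d8c cell, pooled levels and each range of d8 cells. Doublets were not called, since cells were picked singly by hand. Exact binomial and Poisson intervals at 95% cover counting error only, and a count of 0 allows 3 cells. The comparison was tested on simulated data first.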

Additional observations from a re-analysis of the deposited data

How the results depend on the processing

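In all 13 alternatives the median of the G2/M genes lay above 0 (1.29 to 2.41) and that of the matrix genes below 0 (-1.76 to -0.36). The median of all genes was also below 0 in each, from -0.73 with ERCC scaling to -0.02 against d8 cells numbered above 48. Among cells at or above the matrix limit, where the matrix median was -0.36, that of all genes was -0.42, so the matrix genes were not lower than genes in general there. The direction of the 24 genes furthest up or down was fixed by their choice against both ranges of d8 cells, and in the other alternatives it did not change. The counts of genes past 2, 47 higher and 71 lower, moved further. They were 97 and 174 with at least 6000 detected genes per cell, 6 and 2 with a pseudocount of 10, 16 and 368 when scaled to ERCC UMIs, 94 and 211 after thinning, 486 and 677 for the log2 of the mean CPM, and 583 and 721 for summed UMIs. Against d8 cells numbered 1 to 48, 152 were lower, against those above 48, 137 were higher, and among cells at or above the matrix limit, an alternative added after seeing the data, 41 were higher and 250 lower (14.1% of calls higher). Past a difference of 1 there were 426 and 1481, and past 3 there were 5 and 0. The share of d8 cells under the matrix limit was 19.4% with a limit 1.5 times as high and 3.23% with one 0.5 times as high. Beyond the scalings named here the cause of each shift was not tested. No paired analysis was possible because all cells form 1 pooled sample and no number is shared between replicates, and no replicate could be left out. With 20 d8c cells, a gene at 0 allows a UMI in up to 15.0% of cells, and cells that express it without a UMI are not limited by this.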
